A study of Mus musculus with 18 samples.

Results

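The Hox cluster genes are the 39 protein-coding genes whose symbol is Hox followed by a cluster letter from a to d and a paralogue number, picked from the 23238 gene symbols of the count tables by that name alone. There were 11 in the HoxA, 10 in the HoxB, 9 in the HoxC and 9 in the HoxD cluster. They were read in 18 QuantSeq libraries of the small intestine of adult C57BL/6J mice. QuantSeq reads 1 end of each transcript, the 3′ end, so that a transcript gives about 1 read whatever its length. There were 4 groups. IntSCs are PDGFRb+ stromal cells of the intestine, which the study sorted by their tdTomato reporter. LECs are lymphatic endothelial cells of the small intestine, the cell type that lines lacteals, the lymph vessels inside the villi. Both came from control mice and from LATS1/2 KO mice, with 6 WT IntSC, 5 KO IntSC, 4 WT LEC and 3 KO LEC libraries. Control mice, labelled WT, carried Pdgfrb-CreERT2 and the tdTomato reporter (PDGFRb+-CreERT2-Tomato+), and KO mice carried the same alleles together with floxed Lats1 and Lats2 (Lats1f/f Lats2 f/f). Cre activity was induced with tamoxifen in the study. The Pdgfrb promoter drives Cre in stromal cells, among them fibroblasts, pericytes and a part of the smooth muscle cells, so LECs from KO mice carry the floxed alleles but are not the cells in which Cre is placed. Cells were sorted by FACS after the serosa and the muscle layer had been taken off. No label ties a library to an animal or a pool of animals, so that the p-values below measure the spread between libraries, which may be technical.

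Hox genes encode homeodomain transcription factors that give cells their place along the head-to-tail axis of the embryo. Genes of a cluster lie on the chromosome in the order in which they are used along that axis, with low paralogue numbers anterior and high numbers posterior, and genes with the same number in different clusters are close relatives. Adult cells derived from the mesoderm, including the fibroblasts and smooth muscle of the gut wall, keep a Hox pattern that reflects their origin, and endothelial cells keep one too.

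The libraries held 5361250 to 10549233 reads, and a gene with no read in a library could still have been present at up to 0.284 to 0.560 CPM (counts scaled to a common library size), the value of 3 reads in that library. Hox genes took 0.0937% to 0.124% of the reads in IntSCs and 0.0744% to 0.105% in LECs. Pdgfrb, the receptor that marks the stromal cells, followed the labels. It was at 484 ± 163 CPM (SD, n = 6) in WT IntSCs and 28.2 ± 29.5 CPM (n = 4) in WT LECs. Pdpn (podoplanin), on which LECs were sorted, did not differ between the WT cell types (edgeR adjusted p = 0.457). Prox1, the transcription factor that defines lymphatic endothelium, was at 52.4 ± 24.04 CPM in WT LECs and at most 0.172 CPM in any WT IntSC library. In KO IntSCs Pdgfrb was at 878 ± 187 CPM, above every WT library (edgeR adjusted p = 0.0613). Lats1 was at 17.5 ± 10.3 CPM in WT and 16.03 ± 3.28 CPM in KO IntSCs, and Lats2 at 72.8 ± 23.7 and 114 ± 20.3 CPM. Neither differed by edgeR's quasi-likelihood test (adjusted p = 0.987 and 0.252), but a transcript that has lost internal exons is still read at its 3′ end, so these counts do not check the deletion and KO below is the label of the library. WT LEC 1 stood apart from the other WT LEC libraries in stromal transcripts. The summed level of 9 stromal markers was 2190 CPM in it against 663 to 717 CPM in the other WT LEC libraries.

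Called expressed where the median over the libraries of a group was at least 1 CPM, 22 of the 39 Hox genes (56.4%) were expressed in WT IntSCs, 23 (59.0%) in KO IntSCs, 19 (48.7%) in WT LECs and 15 (38.5%) in KO LECs. Over all gene symbols of the tables the same rule gave 51.7%, 54.0%, 46.2% and 38.6%, so the Hox genes were expressed about as often as genes at large. WT IntSCs and WT LECs shared 18 expressed Hox genes. Among them were Hoxc4, Hoxc6 and Hoxc8, whose WT LEC means were 4.92%, 3.22% and 14.4% of those in WT IntSCs. The stromal markers were at 7.14% by the same measure. Whether these genes passed in LECs through stromal transcripts was not tested. Hoxb9, Hoxc5 and Hoxc9 were among the genes that passed in WT IntSCs and not in WT LECs, and Hoxd9 passed in WT LECs and not in WT IntSCs. Between genotypes, the 22 genes of WT IntSCs all passed in KO IntSCs, which added Hoxa6, and the 15 genes of KO LECs were all among the 19 of WT LECs, which also held Hoxa2, Hoxa3, Hoxc4 and Hoxc8.

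By position along the clusters, the central genes with numbers 4 to 8 were nearly all expressed in IntSCs. Of these 15, 14 passed in WT IntSCs, 15 in KO IntSCs, 13 in WT LECs and 11 in KO LECs. Of the 8 anterior genes with numbers 1 to 3, 6, 6, 5 and 3 passed in the same order. Of the 16 posterior genes with numbers 9 to 13, 2 passed in each IntSC group (Hoxb9 and Hoxc9) and 1 in each LEC group (Hoxd9), and none of the 12 genes with numbers 10 to 13 passed in any group. The last expressed gene of the HoxA cluster was Hoxa7 in every group. In HoxB it was Hoxb9 in IntSCs and Hoxb8 in LECs, in HoxC it was Hoxc9 in IntSCs, Hoxc8 in WT LECs and Hoxc6 in KO LECs, and in HoxD it was Hoxd8 in IntSCs and Hoxd9 in LECs. The heat map of all members by library shows the bands of central genes and the empty rows of posterior genes.

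**Figure D1:**
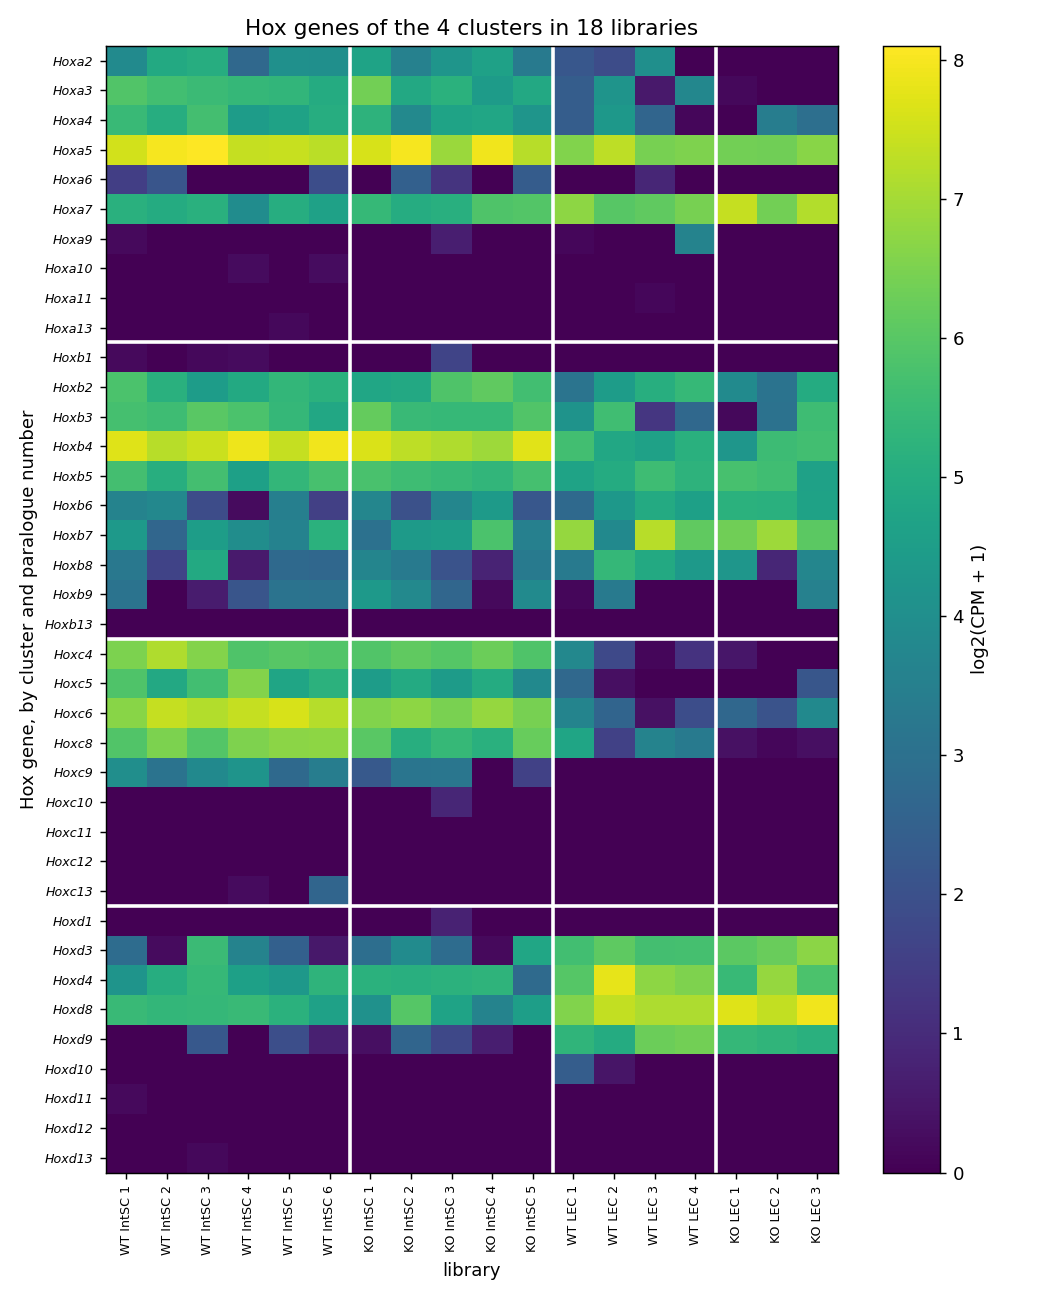
Heat map of 38 Hox genes (rows, by cluster and paralogue number) in 18 libraries (columns, by group), with colour giving log2(CPM + 1) from 0 upwards. The HoxC block from Hoxc4 to Hoxc9 is bright in the 11 IntSC libraries (Hoxc9 fainter) and mostly dark in the 7 LEC libraries, Hoxd9 is bright in LECs, and the rows with paralogue numbers 10 to 13 are dark in nearly all libraries.

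The 16 members whose mean was under 5 CPM in every group were called in no comparison and had few reads or reads in few libraries. Hoxb13, Hoxc11, Hoxc12 and Hoxd12 had no read in any library, and Hoxa11, Hoxa13, Hoxd11 and Hoxd13 had 1 read each in all 18 libraries together. Hoxa10 had 2 reads, Hoxd1 6 and Hoxc10 7. Higher single values came from 1 or a few libraries. Hoxa9 reached 11.2 CPM in WT LEC 4, from 119 reads in all libraries together, Hoxc13 5.27 CPM in WT IntSC 6 and Hoxd10 4.18 CPM in WT LEC 1. Hoxb1, the most anterior HoxB gene, reached 2.16 CPM in KO IntSC 3. Hoxa6 was the only gene of these 16 to pass as expressed in a group, with a median of 1.32 CPM in KO IntSCs.

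A share of the Hox reads within a library does not depend on library size or scaling. In WT IntSCs the Hox reads came to 28.5% ± 4.82 (SD, n = 6) from HoxA, 31.4% ± 5.04 from HoxB, 33.4% ± 4.44 from HoxC and 6.78% ± 1.72 from HoxD. In WT LECs (n = 4) HoxA gave 25.3% ± 3.74, HoxB 29.2% ± 5.91, HoxC 2.89% ± 3.11 and HoxD 42.6% ± 7.12. The cell types thus differed in the HoxC and HoxD shares, whose ranges did not overlap, and held similar HoxA and HoxB shares. HoxC gave 27.9% to 38.0% of the Hox reads of a WT IntSC library and 1.01% to 7.53% of a WT LEC library, the highest of these being WT LEC 1. HoxD gave 5.71% to 10.2% in WT IntSCs and 33.2% to 50.2% in WT LECs.

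The KO groups had the same split between cell types. In KO IntSCs (n = 5) the shares were 32.4% ± 4.26 for HoxA, 36.4% ± 4.18 for HoxB, 24.1% ± 1.42 for HoxC and 7.04% ± 2.65 for HoxD, and in KO LECs (n = 3) they were 25.5% ± 4.58, 28.6% ± 2.92, 0.979% ± 0.718 and 45.0% ± 2.01. By paralogue number the central genes gave most Hox reads in every group, with 84.5% ± 2.18 in WT IntSCs, 81.0% ± 3.44 in KO IntSCs, 79.2% ± 3.27 in WT LECs and 82.2% ± 4.81 in KO LECs. The posterior genes gave 1.59% ± 0.549 and 1.68% ± 0.960 in WT and KO IntSCs and 7.54% ± 3.25 and 4.78% ± 0.193 in WT and KO LECs. Summed over the 39 genes, the level was 1151 ± 83.6 CPM in WT IntSCs, 991 ± 89.7 CPM in KO IntSCs, 846 ± 93.3 CPM in WT LECs and 874 ± 76.1 CPM in KO LECs. These shares and sums are descriptions, with no test.

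**Figure D2:**
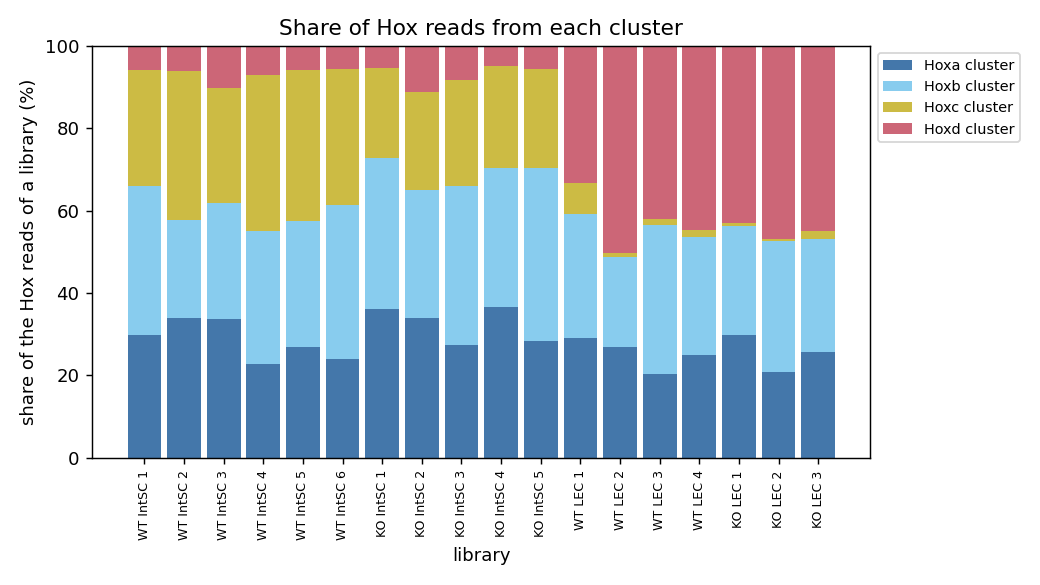
Stacked bars of the share of the Hox reads of each library (percent, y axis) that came from the HoxA, HoxB, HoxC and HoxD clusters, for the 18 libraries (x axis). HoxC takes 22.0% or more of the Hox reads in every IntSC library and at most 7.53% in any LEC library, and HoxD takes at most 11.1% in IntSC libraries and at least 33.2% in LEC libraries.

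The comparison of WT LECs with WT IntSCs asks how the Hox pattern of the lymphatic endothelium differs from that of the stroma beside it. Of the 39 members, 23 had enough reads to be tested, and 13 of these differed by edgeR's quasi-likelihood test (Benjamini-Hochberg adjusted p under 0.05 over all 12203 genes tested). Over all genes tested 22.6% were called. Hoxa7, Hoxb7, Hoxd4, Hoxd8 and Hoxd9 were higher in LECs, 5 of 23 against 10.3% of all genes, and Hoxa3, Hoxa5, Hoxb4, Hoxc4, Hoxc5, Hoxc6, Hoxc8 and Hoxc9 were lower, 8 of 23 against 12.3%. The median log2 fold change was -0.94 over the tested members and -0.04 over all genes tested. In 5 tested members every LEC library lay above every IntSC library, and in 8 every LEC library lay below, where 9.65% and 11.5% of all genes tested did so. All 5 tested HoxC genes were lower and none higher, and 3 of 4 tested HoxD genes were higher and none lower.

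The HoxC genes were the stromal block. Hoxc4 ranged from 57.4 to 139 CPM (median 76.5) in WT IntSCs, while the WT LEC libraries held 12.6, 2.47, 0.0937 and 1.3 CPM. It was lower in LECs (log2 fold change -4.33, SE 0.88, adjusted p = 0.00264 by edgeR). Only WT LEC 1 held more than 3 CPM of it. Hoxc5 lay at 26.4 to 94.9 CPM (median 42.6) in WT IntSCs and at 5.71, 0.247, 0 and 0 CPM in the WT LEC libraries, with reads in 2 of these (log2 fold change -4.99, SE 1.25, adjusted p = 0.0102 by edgeR). Hoxc6, the gene next to it on the chromosome, lay at 99.3 to 193 CPM (median 156) in WT IntSCs and at 11.5, 5.06, 0.281 and 2.8 CPM in WT LECs (log2 fold change -4.95, SE 0.70, adjusted p = 0.000126 by edgeR). The lowest IntSC library thus held several times the highest LEC library for Hoxc4, Hoxc5 and Hoxc6.

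Of the HoxC genes, Hoxc8 kept the largest share of its IntSC level in WT LECs. It lay at 59 to 104 CPM (median 91.3) in WT IntSCs and at 26.3, 1.97, 11.3 and 9.2 CPM in WT LECs, again without overlap (log2 fold change -2.78, SE 0.55, adjusted p = 0.00177 by edgeR). Hoxc9, the last expressed gene of the cluster and a posterior-group gene of trunk patterning, lay at 5.88 to 17.3 CPM (median 11.7) in WT IntSCs and had no read in any LEC library, WT or KO. Its WT IntSC mean was at least 149-fold the floor of 3 reads over the WT LEC group, counting error only (edgeR adjusted p = 0.00136). The 5 HoxC calls kept their direction and threshold when any 1 library was left out. Without WT LEC 1, the library with most stromal transcripts, the log2 fold changes of Hoxc4, Hoxc5, Hoxc6 and Hoxc8 were -6.04, -9.09, -5.83 and -3.48, that of Hoxc5 resting on 2 reads in the LEC libraries.

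The stromal markers moved with the HoxC genes. All 9 of 9 stromal markers were lower in WT LECs, their summed level was 11862 to 18020 CPM in WT IntSCs and 663 to 2190 CPM in WT LECs, and none of them was without reads there. As a percentage of the mean WT IntSC level, WT LECs held 7.14% of the stromal markers, 4.92% of Hoxc4, 3.06% of Hoxc5, 3.22% of Hoxc6 and 14.4% of Hoxc8. How much of the HoxC level of the LEC libraries came from stromal transcripts was not tested. In bulk samples such as these, fewer cells with a transcript and less of it per cell cannot be told apart.

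HoxD genes lay the other way. Hoxd9, a posterior-group gene, ranged from 0 to 3.66 CPM (median 0.316) in WT IntSCs, with reads in 3 of 6 libraries, and held 38.1, 31, 76 and 81.3 CPM in WT LECs (log2 fold change 5.52, SE 1.10, adjusted p = 0.00213 by edgeR). Hoxd8 lay at 24 to 44.1 CPM (median 40.7) in WT IntSCs and at 94.5, 162, 136 and 136 CPM in WT LECs (log2 fold change 1.80, SE 0.27, adjusted p = 0.000175 by edgeR). The lowest LEC library held more of either gene than the highest IntSC library. Without WT IntSC 3, the IntSC library with most Hoxd9, the log2 fold change of Hoxd9 was 6.24. WT IntSCs held 2.91% of the summed LEC marker level of WT LECs, 2.11% of the Hoxd9 level and 28.9% of the Hoxd8 level. Most of that marker level in WT IntSCs, 338 CPM, was Pdpn at 239 CPM, which was not called between the WT cell types. The 2.91% is therefore no measure of LEC transcripts in the IntSC libraries.

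Hoxd4 ranged from 17.3 to 42.2 CPM (median 27.7) in WT IntSCs, and the WT LEC libraries held 61.8, 223, 104 and 92.4 CPM (log2 fold change 2.08, SE 0.38, adjusted p = 0.00101 by edgeR). Hoxd3 lay at 0.172 to 44.5 CPM (median 5.4) in WT IntSCs and at 49, 67.1, 50.4 and 50.9 CPM in WT LECs. Its groups did not overlap either, but the spread of the IntSC libraries was wide and it did not pass the test (log2 fold change 2.28, SE 0.96, adjusted p = 0.113 by edgeR). Hoxd3 and Hoxd4 share 388 exonic bases on the same strand in the GENCODE vM21 annotation (GRCm38), and both share exonic bases with the antisense gene Hoxd3os1. How the reads were assigned and whether strand was used is not given in the sources used here, so reads of these genes may have been split or exchanged.

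The HoxD cluster lies at chr2:74668310-74765142 and the HoxC cluster at chr15:102921103-103036852 (GRCm38, GENCODE vM21), with HoxB at chr11:96194316-96368256. RefSeq promoters (250 bases before to 50 after the start, GRCm38.p6) were matched for 22 members, 24 promoters in all. Several Hox genes are known targets of retinoic acid receptors, whose half-site is AGGTCA. The motif, or its reverse complement TGACCT, stood on either strand in 29.2% of the Hox promoters and in 16.3% of all 32851 promoters of this length. The Hox cofactor motif TGATNNAT, which a PBX and a Hox protein share, stood in 16.7% against 8.85%, and GGAATG, the core that TEAD factors bind, in 8.33% against 14.7%. Of the genes called between the cell types, Hoxa5, Hoxb4 and Hoxc4, lower in LECs, and Hoxd3 (called in KO mice), Hoxd4 (called in WT mice) and Hoxd8, higher in LECs, each held 1 half-site, as did Hoxd10, which was not called. The promoters of Hoxa2, Hoxa3, Hoxa7 and Hoxd9, which were also called, held no half-site. Hoxb7, Hoxc5, Hoxc6, Hoxc8 and Hoxc9 were among the called genes without a matched promoter. The promoters of Hoxb4, Hoxc4, Hoxd4 and Hoxd8 are shown as examples, with the half-site or its reverse complement in capitals, because the same letters stand in front of genes that differed in opposite directions.
Hoxb4, chr11:96318017-96318316, + strand: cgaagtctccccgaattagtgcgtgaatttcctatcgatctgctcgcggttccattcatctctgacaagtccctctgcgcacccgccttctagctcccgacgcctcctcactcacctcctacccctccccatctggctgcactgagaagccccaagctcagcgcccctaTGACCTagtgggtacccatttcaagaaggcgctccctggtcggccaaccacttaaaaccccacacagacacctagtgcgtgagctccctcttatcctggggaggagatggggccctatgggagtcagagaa
Hoxc4, chr15:103034145-103034444, + strand: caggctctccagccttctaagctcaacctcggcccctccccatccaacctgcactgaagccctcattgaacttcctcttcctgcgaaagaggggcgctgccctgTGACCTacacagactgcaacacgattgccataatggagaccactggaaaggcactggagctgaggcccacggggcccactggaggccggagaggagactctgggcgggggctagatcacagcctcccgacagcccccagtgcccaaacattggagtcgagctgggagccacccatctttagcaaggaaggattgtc
Hoxd4, chr2:74721728-74722027, + strand: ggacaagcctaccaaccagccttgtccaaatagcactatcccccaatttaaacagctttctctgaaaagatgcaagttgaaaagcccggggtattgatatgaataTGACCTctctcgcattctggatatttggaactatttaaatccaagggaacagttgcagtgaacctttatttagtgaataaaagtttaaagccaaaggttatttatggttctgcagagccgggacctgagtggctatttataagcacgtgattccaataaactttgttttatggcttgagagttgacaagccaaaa
Hoxd8, chr2:74704365-74704664, + strand: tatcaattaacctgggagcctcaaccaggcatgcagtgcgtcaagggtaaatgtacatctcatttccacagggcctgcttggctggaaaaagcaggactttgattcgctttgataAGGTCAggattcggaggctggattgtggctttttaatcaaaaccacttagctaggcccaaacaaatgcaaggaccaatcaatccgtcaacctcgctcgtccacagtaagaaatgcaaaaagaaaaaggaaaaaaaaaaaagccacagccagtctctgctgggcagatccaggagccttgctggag

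The ratio of observed to expected CpG was 0.593, 0.333, 0.339 and 0.367 in these 4 promoters, against a median of 0.626 over the Hox promoters and 0.384 over all promoters. The motif matches are descriptions of the letters in the window, and no binding was measured.

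In the HoxA cluster Hoxa3 and Hoxa5 were lower and Hoxa7 was higher in LECs. Hoxa3, a gene of the pharyngeal and neck region in the embryo, lay at 31 to 58.4 CPM (median 43.2) in WT IntSCs and at 4.18, 17.4, 0.469 and 12.5 CPM in WT LECs (log2 fold change -2.35, SE 0.71, adjusted p = 0.0253 by edgeR). The groups did not overlap, but the call was lost without WT IntSC 1 (adjusted p = 0.0581) and without WT LEC 1 (0.0611), and without WT LEC 2 the log2 fold change was -2.96. Hoxa5, which is needed for the mesenchyme of lung and gut, lay at 154 to 274 CPM (median 177) in WT IntSCs and at 94, 158, 85.7 and 92.3 CPM in WT LECs, with WT LEC 2 above the lowest IntSC library (log2 fold change -0.90, SE 0.26, adjusted p = 0.0204 by edgeR). Without WT LEC 1, 3 or 4 its adjusted p was 0.0546, 0.0636 and 0.0575. Hoxa7 lay at 14.5 to 34.5 CPM (median 31.7) in WT IntSCs and at 105, 62.3, 68.3 and 85.2 CPM in WT LECs, all of them above the IntSC range (log2 fold change 1.51, SE 0.34, adjusted p = 0.00428 by edgeR).

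Hoxa2 and Hoxa4 did not pass the test. Hoxa2 lay at 5.72 to 32.2 CPM (median 15.6) in WT IntSCs and at 3.61, 2.71, 15.5 and 0 CPM in WT LECs (log2 fold change -1.76, SE 1.10, adjusted p = 0.298 by edgeR). Hoxa4 lay at 21.4 to 50.2 CPM (median 32.1) in WT IntSCs and at 4.28, 18.9, 5.25 and 0.1 CPM in WT LECs, where each library was below every IntSC library (log2 fold change -2.26, SE 0.86, adjusted p = 0.0718 by edgeR).

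The HoxB genes gave 1 call in each direction. Hoxb4, a gene also known for its role in blood stem cells, lay at 150.4 to 242 CPM (median 191) in WT IntSCs and at 49.5, 28, 23.6 and 34 CPM in WT LECs (log2 fold change -2.53, SE 0.28, adjusted p = 8.66e-06 by edgeR). It had the smallest adjusted p of the members in this comparison, and the highest LEC library held less than the lowest IntSC library. Hoxb7 lay at 5.33 to 34.8 CPM (median 17.4) in WT IntSCs and at 112, 13.5, 151 and 68.6 CPM in WT LECs (log2 fold change 2.28, SE 0.58, adjusted p = 0.00979 by edgeR). WT LEC 2 lay inside the IntSC range and the other LEC libraries above it. By limma-voom the adjusted p of Hoxb7 was 0.06.

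The other HoxB genes tested had LEC values inside or across the IntSC range. Hoxb2 lay at 21.5 to 55.2 CPM (median 34.6) in WT IntSCs and at 7.61, 21.1, 32.6 and 41.6 CPM in WT LECs. Hoxb3 lay at 27.8 to 63.6 CPM (median 48.9) and at 16.7, 48.3, 1.41 and 5.6 CPM. Hoxb2 and Hoxb3 share exonic bases with the antisense gene Hoxb3os, from whose transcripts their reads cannot be told apart if strand was not used. Hoxb5 lay at 23.2 to 52.9 CPM (median 45.3) in WT IntSCs and at 25, 31, 47.1 and 37 CPM in WT LECs, the closest pair of groups among the HoxB genes (log2 fold change -0.24). Hoxb6 lay at 0.168 to 12.7 CPM (median 6.51) and at 5.8, 19.1, 29.9 and 23.4 CPM. Hoxb8 lay at 0.505 to 29 CPM (median 5.68) and at 8.94, 40.8, 29.6 and 19.4 CPM. For Hoxb2, Hoxb3, Hoxb5, Hoxb6 and Hoxb8 the adjusted p was between 0.176 and 0.729. Hoxb9, the last expressed HoxB gene of IntSCs, lay at 0 to 7.58 CPM (median 5.37) in WT IntSCs and at 0.0951, 9.13, 0 and 0 CPM in WT LECs (log2 fold change -0.94, SE 1.84, adjusted p = 0.792 by edgeR).

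**Figure D3:**
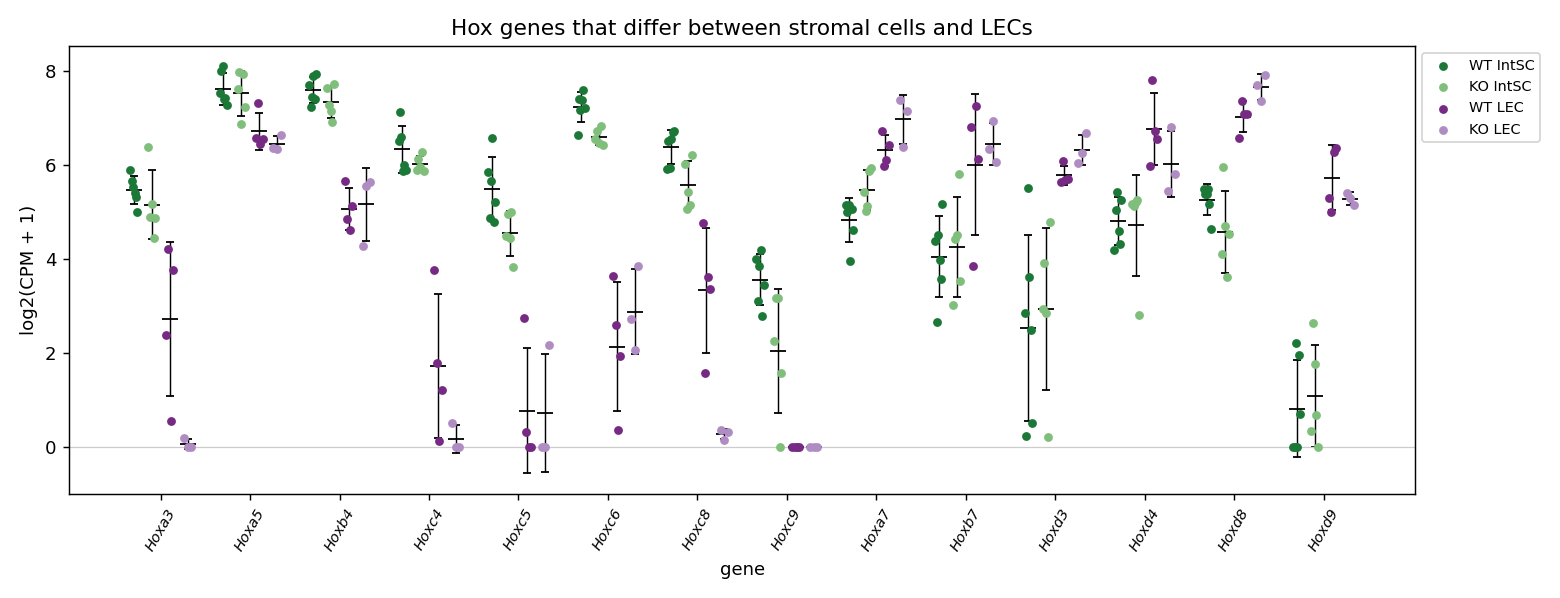
Points give log2(CPM + 1) (y axis) of 14 Hox genes (x axis) in each library of WT IntSCs, KO IntSCs, WT LECs and KO LECs, with the mean as a bar and the SD as whiskers (n = 6, 5, 4 and 3). The genes on the left, from Hoxa3 to Hoxc9, lie lower in LECs of both genotypes and those on the right, from Hoxa7 to Hoxd9, lie higher, and Hoxc9 is at 0 in all LEC libraries.

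The same comparison in KO mice used libraries that share no sample with the WT comparison. Of 24 members tested, 14 differed between KO LECs and KO IntSCs, where 25.9% of all 12758 genes tested were called. Hoxa7, Hoxb7, Hoxd3, Hoxd8 and Hoxd9 were higher in KO LECs, 5 of 24 against 9.11% of all genes, and Hoxa2, Hoxa3, Hoxa5, Hoxb4, Hoxc4, Hoxc6, Hoxc8 and Hoxc9 were among those that were lower, 9 of 24 against 16.8%. The median log2 fold change was -1.50 over the tested members and -0.21 over all genes tested (-0.94 by limma-voom and -0.84 with the replicate block), so directions are to be read against that shift. In 7 members every KO LEC library lay above every KO IntSC library and in 9 every one lay below, where 11.4% and 20.9% of all genes tested did so.

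For the HoxC genes, KO IntSCs held 58.7, 68.5, 61.5, 76.9 and 57.4 CPM of Hoxc4 and KO LECs held 0.419, 0 and 0 CPM. These KO LEC values were 3 reads in all, and the ratio of the summed levels was 533 (95% interval 182 to 2590, counting error only) with an edgeR adjusted p of 0.000159. Hoxc6 was at 93.1, 105, 86.9, 112 and 85.4 CPM in KO IntSCs and at 5.59, 3.2 and 13.4 CPM in KO LECs (log2 fold change -3.71, SE 0.51, adjusted p = 0.000522 by edgeR). Without KO LEC 3 its log2 fold change was -4.46. Hoxc8 was at 63.8, 32.6, 42.2, 34.6 and 73.3 CPM in KO IntSCs and at 0.279, 0.103 and 0.248 CPM in KO LECs (log2 fold change -7.80, SE 0.78, adjusted p = 6.25e-05 by edgeR). Each KO LEC library held under 1 CPM of Hoxc8, whereas each KO IntSC library held over 30 CPM.

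Hoxc5 and Hoxc9 had weaker tests in the KO groups. Hoxc5 was at 21.3, 30.3, 20.8, 30.9 and 13.3 CPM in KO IntSCs and at 0, 0 and 3.47 CPM in KO LECs, without overlap but not past the threshold (log2 fold change -4.32, SE 1.61, adjusted p = 0.0734 by edgeR). Hoxc9 was at 3.79, 7.94, 8.05, 0 and 1.99 CPM in KO IntSCs and at 0 in the KO LEC libraries. Its KO IntSC mean was 33.7-fold the floor of 3 reads over the KO LEC group, counting error only, and the test called it (edgeR adjusted p = 0.042). That call was lost when any 1 library but KO IntSC 4 was left out, with adjusted p from 0.0645 to 0.0776. The stromal markers were at 8236 to 13325 CPM in KO IntSCs and 333 to 580 CPM in KO LECs, 3.91% of the KO IntSC mean, with all 9 of 9 lower in LECs and none at 0. Their part in the HoxC levels of KO LECs was not tested. Hoxc8 in KO LECs was at 0.426% and Hoxc6 at 7.66% of its mean in KO IntSCs.

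For the HoxD genes, KO IntSCs held 16.2, 60.8, 25, 11.3 and 22 CPM of Hoxd8 and KO LECs 206, 165 and 242 CPM (log2 fold change 2.92, SE 0.48, adjusted p = 0.00163 by edgeR). Hoxd9 was at 0.262, 5.2, 2.4, 0.597 and 0 CPM in KO IntSCs and at 41.5, 38.6 and 34.2 CPM in KO LECs (log2 fold change 4.48, SE 1.26, adjusted p = 0.0252 by edgeR). Hoxd9 lost its call without KO IntSC 1, 3 or 4 (adjusted p 0.0545, 0.0534 and 0.0545), and without KO IntSC 2 its log2 fold change was 5.5. Hoxd3 was at 6.67, 14.1, 6.24, 0.149 and 26.6 CPM in KO IntSCs and at 65.1, 75 and 101 CPM in KO LECs (log2 fold change 2.90, SE 0.93, adjusted p = 0.0429 by edgeR). It lost the call without any 1 of KO IntSC 1, 2 and 3 and the KO LEC libraries (adjusted p from 0.0527 to 0.0941), and its log2 fold change was 3.56 without KO IntSC 5. Hoxd4 was at 34.9, 33.7, 36.1, 37.3 and 5.98 CPM in KO IntSCs and at 42.9, 112 and 55 CPM in KO LECs (log2 fold change 1.24, SE 0.57, adjusted p = 0.145 by edgeR). Hoxd4 thus lay higher in every LEC library but did not pass the test in KO mice.

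The anterior genes Hoxa2 and Hoxa3 had at most 1 read in KO LECs. Hoxa2 was at 25.2, 10.7, 17.5, 24 and 8.9 CPM in KO IntSCs and had no read in the KO LEC libraries (edgeR adjusted p = 0.00242). Its KO IntSC mean was at least 134-fold the floor of 3 reads over the KO LEC group, counting error only. Hoxa3 was at 82, 28.6, 34.9, 20.7 and 28.4 CPM in KO IntSCs and had 1 read in KO LECs, in KO LEC 1 (edgeR adjusted p = 0.00037). The ratio of the summed Hoxa3 levels was 983 (95% interval 176 to 38800, counting error only).

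Hoxa5, Hoxa7, Hoxb4 and Hoxb7 were called in the same direction as in WT mice. Hoxa5 was at 195, 251, 116, 244 and 149 CPM in KO IntSCs and at 81.8, 80.4 and 99.1 CPM in KO LECs (log2 fold change -1.14, SE 0.30, adjusted p = 0.018 by edgeR). Hoxa7 was at 41.8, 31.2, 33.7, 57.7 and 59.9 CPM in KO IntSCs and at 166, 82 and 141 CPM in KO LECs (log2 fold change 1.53, SE 0.34, adjusted p = 0.00851 by edgeR). Hoxb4 was at 197, 154, 141, 119 and 211 CPM in KO IntSCs and at 18.3, 46.2 and 49.1 CPM in KO LECs (log2 fold change -2.12, SE 0.38, adjusted p = 0.0026 by edgeR). Groups did not overlap for any of these 3 genes. Hoxb7 was at 7.06, 20.5, 21.7, 54.9 and 10.5 CPM in KO IntSCs and at 80.3, 121 and 65.8 CPM in KO LECs (log2 fold change 1.95, SE 0.60, adjusted p = 0.038 by edgeR). Leaving out KO IntSC 1, 2, 3 or 5 or KO LEC 1 or 2 ended the Hoxb7 call (adjusted p from 0.0535 to 0.106), and without KO IntSC 4 its log2 fold change was 2.56.

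Genes of the HoxA and HoxB clusters that were not called in KO mice had these levels. Hoxa4 was at 37.1, 13.1, 25.1, 26.5 and 17.5 CPM in KO IntSCs and 0, 9.91 and 6.82 CPM in KO LECs. Hoxb2 was at 26.5, 28.4, 57.5, 68.1 and 48.7 CPM and 13.7, 7.54 and 30.4 CPM. Hoxb3 was at 71.9, 43.6, 41.9, 42.2 and 58.2 CPM and 0.14, 7.33 and 47 CPM, a spread among LEC libraries wider than the gap between the groups. Hoxb5 was at 54.3, 46.7, 43, 39.4 and 51.7 CPM in KO IntSCs and 52.8, 48.1 and 23.9 CPM in KO LECs. Hoxb6 was at 12, 3.01, 12.2, 20.3 and 3.59 CPM and 35.5, 34.2 and 24.7 CPM. Every KO LEC library was above every KO IntSC library for Hoxb6, with an adjusted p of 0.156. Hoxb8 was at 11.8, 9.04, 3.24, 0.746 and 8.9 CPM in KO IntSCs and 18.3, 0.826 and 12 CPM in KO LECs. Hoxb9 was at 19.2, 13, 5.4, 0.149 and 13.7 CPM and 0, 0 and 10.9 CPM, with all LEC reads in KO LEC 3.

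The comparison of KO with WT IntSCs asks whether loss of LATS1/2, kinases that hold back the coactivators YAP and TAZ, moves the Hox pattern of the cells that lose them. It used the same libraries as the comparisons between cell types. None of 23 members tested was called by edgeR, where 1.47% of all 12421 genes tested were (0.853% higher and 0.62% lower in KO), and for none did the KO and WT libraries lie apart, where 1.63% of all genes were higher and 1.2% lower in every KO library. Of the 23, 4 had an unadjusted p under 0.05 (Hoxa7, Hoxc5, Hoxc6 and Hoxc8), where 9.81% of all genes did. DESeq2 called 1 member, Hoxc6, and limma-voom none, where they called 376 and 224 of all 12421 genes tested. The median log2 fold change was -0.08 over the tested members and 0.00 over all genes. The fitted values of all 5 tested HoxC genes were negative, with a median of -0.78.

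The HoxC genes gave the smallest p-values. Hoxc6 had a log2 fold change -0.66, SE 0.20, adjusted p = 0.117 by edgeR, with KO IntSC 2 and 4 within the WT range of 99.3 to 193 CPM and the other 3 KO libraries below it. DESeq2 gave it an adjusted p of 0.0432. Hoxc8 had a log2 fold change -0.78, SE 0.26, adjusted p = 0.187 by edgeR, with 2 KO libraries inside the WT range and 3 below it. Hoxc5 (log2 fold change -1.06, SE 0.36, adjusted p = 0.196 by edgeR), Hoxc4 (log2 fold change -0.38, SE 0.25, adjusted p = 0.723 by edgeR) and Hoxc9 (log2 fold change -1.40, SE 0.86, adjusted p = 0.674 by edgeR) had overlapping groups as well. The HoxC share of the Hox reads was 22.0% to 25.8% in KO and 27.9% to 38.0% in WT IntSC libraries, which did not overlap, and the summed HoxC level was 220 to 255 CPM against 321 to 433 CPM. No test was made on these sums.

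Outside HoxC, the values of the genotypes overlapped for each of the tested members. Hoxa7 had a log2 fold change 0.66, SE 0.30, adjusted p = 0.469 by edgeR, with KO IntSC 2 and 3 within the WT range and the other 3 KO libraries above it. The fitted log2 fold changes of Hoxa3, Hoxa5, Hoxb3, Hoxb4, Hoxb5 and Hoxd4 were -0.18, -0.07, 0.12, -0.26, 0.17 and 0.06, and the signs of Hoxa5, Hoxb3 and Hoxd4 changed in at least 1 alternative. Marker genes of the sorted cells were set beside these values. Of the 9 stromal markers 1 was lower (Col3a1) and none higher, and their summed level was 14951 ± 2533 CPM in WT and 11273 ± 2129 CPM in KO IntSCs. The 6 smooth muscle markers summed to 1431 ± 246 CPM in WT and 1853 ± 531 CPM in KO IntSCs, with none called. Their part in the HoxC values was not tested.

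**Figure D4:**
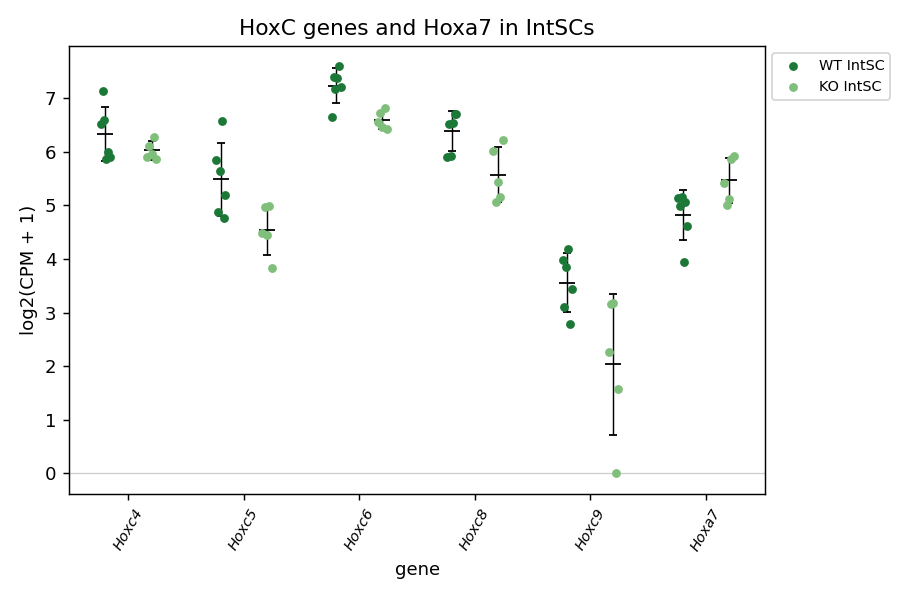
Points give log2(CPM + 1) (y axis) of 5 HoxC genes and Hoxa7 (x axis) in the WT (n = 6) and KO (n = 5) IntSC libraries, with the mean as a bar and the SD as whiskers. The KO means of the HoxC genes lie below the WT means with overlapping points, and that of Hoxa7 lies above.

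In LECs none of 19 members tested was called by edgeR between KO and WT, where 0.0658% of all 10639 genes tested were (0.0282% higher and 0.0376% lower in KO). In simulated counts this comparison recovered 14% of the planted changes, against 86% between IntSC genotypes. The planted changes were all of the same size, in genes with higher means than Hoxa2, Hoxa3, Hoxc4 and Hoxc8 had in LECs. These shares therefore do not say how often a change in those genes would be found. A missing call in LECs does not show that the levels were equal. At an unadjusted p under 0.05 there were 4 of 19 (Hoxa2, Hoxa3, Hoxc8 and Hoxd8), where 7.87% of all genes were. DESeq2 called 2 members lower, Hoxa3 and Hoxc8, and limma-voom none, where they called 309 and 12 of all 10639 genes tested. A fit of all 4 groups lends the LECs the spread of the IntSCs. In it 4 of 24 members were lower, namely Hoxa2, Hoxa3, Hoxc4 and Hoxc8 (edgeR adjusted p = 0.0164, 0.00157, 0.0217 and 0.000139). That fit called 538 of all 14015 genes tested in either direction. For Hoxa3 and Hoxc8 every KO LEC library lay below every WT LEC library and for Hoxd8 every one lay above, 2 and 1 of 19, where 6.45% and 3.48% of all genes did so.

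The WT LEC libraries were uneven for these genes. Hoxa3 was at 4.18, 17.4, 0.469 and 12.5 CPM in WT LECs and at 0.14, 0 and 0 CPM in KO LECs (log2 fold change -7.18, SE 2.88, adjusted p = 0.524 by edgeR). The ratio of its summed levels was 199.7 (95% interval 35.6 to 7910, counting error only). Hoxc8 was at 26.3, 1.97, 11.3 and 9.2 CPM in WT LECs and at 0.279, 0.103 and 0.248 CPM in KO LECs (log2 fold change -5.71, SE 2.36, adjusted p = 0.542 by edgeR). Hoxa2 was at 3.61, 2.71, 15.5 and 0 CPM in WT LECs and had no read in KO LECs (edgeR adjusted p = 0.521). Its WT LEC mean was 42.1-fold the floor of 3 reads over the KO LEC group. That ratio covers counting error only and leaves out the spread between libraries, and WT LEC 4 had no read either. WT LEC 3 held most of the Hoxa2 reads. Hoxc4 was at 12.6, 2.47, 0.0937 and 1.3 and at 0.419, 0 and 0 CPM (log2 fold change -4.74, SE 2.69, adjusted p = 0.792 by edgeR).

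For the genes that were higher in LECs than in IntSCs, no call was made between genotypes either. Hoxd8 was at 94.5, 162, 136 and 136 CPM in WT LECs and at 206, 165 and 242 CPM in KO LECs (log2 fold change 0.70, SE 0.31, adjusted p = 0.586 by edgeR), and Hoxa7 at 105, 62.3, 68.3 and 85.2 and at 166, 82 and 141 CPM (log2 fold change 0.76, SE 0.37, adjusted p = 0.683 by edgeR). Hoxd9, Hoxd4, Hoxb4 and Hoxa5 had log2 fold changes of -0.49, -0.71, 0.24 and -0.23. The stromal markers lay lower in KO LECs too. Their summed level was 663 to 2190 CPM in WT LECs and 333 to 580 CPM in KO LECs, with none of 9 called and none at 0, and their part in these values was not tested. The number of genes with a read was 11490 to 12059 in WT LECs and 10576 to 11001 in KO LECs.

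Whether the genotype difference was the same in both cell types was tested as an interaction over all 4 groups, the libraries of the comparisons above, with positive values where KO minus WT was higher in IntSCs than in LECs. Of 24 members tested, 3 were called, all positive, where 1.42% of all 14015 genes tested were called in that direction, 0.278% in the other and 1.7% in either. They were Hoxc8 (difference of log2 fold changes 5.01, adjusted p = 0.00333 by edgeR), Hoxa3 (7.05, adjusted p = 0.00674) and Hoxa2 (8.29, adjusted p = 0.0406), with SEs of 0.88, 1.35 and 2.06. In all 3 the KO LECs held under 0.3 CPM in each library. Hoxa2 had no read there, so its fitted value depends on the prior count of the fit and is no bound. The 4 groups share 1 estimate of the spread in this fit, which lends the LECs that of the IntSCs. Between LEC genotypes alone the edgeR adjusted p of Hoxc8, Hoxa3 and Hoxa2 was 0.542, 0.524 and 0.521. The median over the tested members was 0.27 and over all genes tested 0.24, so the interaction values are to be read against that shift. Of the 9 stromal markers Col3a1 and Pdgfra were called in the interaction in the same direction, and their part in the Hox values was not tested. By limma-voom none of the 3 passed (adjusted p = 0.117, 0.0829 and 0.203), while DESeq2 called them and Hoxc4. Over all 14015 genes tested limma-voom called 143 and DESeq2 1023. The Hoxa2 call was lost in 15 of 18 fits that left out 1 library, which were all but those without WT LEC 1, WT LEC 2 or WT LEC 4, with adjusted p up to 0.072. Without WT LEC 3 the Hoxa2 value was 6.9. The Hoxa3 value was 6.46 without WT LEC 2 and 8.89 without KO LEC 1, which held its 1 KO LEC read, and the Hoxc8 value was 4.31 without WT LEC 1.

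**Figure D5:**
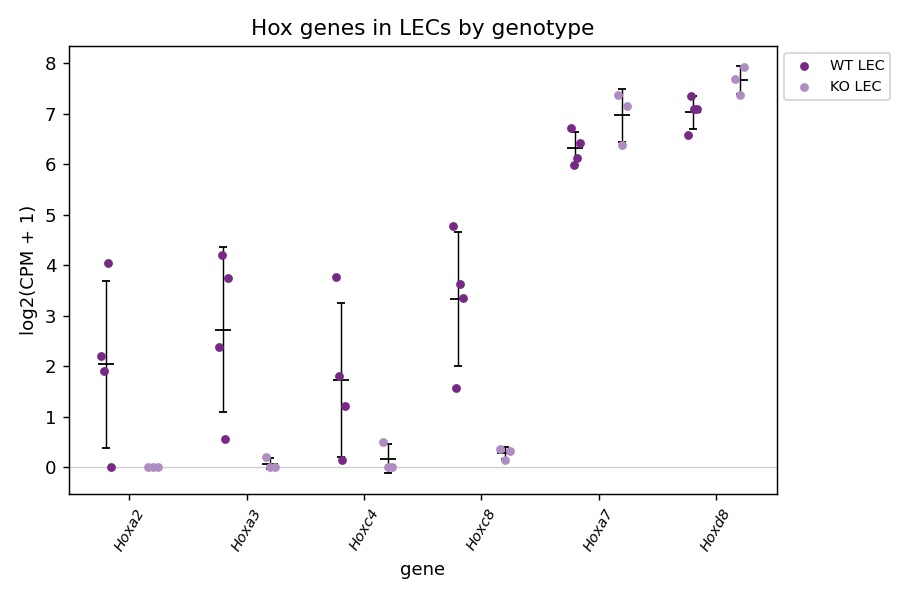
Points give log2(CPM + 1) (y axis) of 6 Hox genes (x axis) in the WT (n = 4) and KO (n = 3) LEC libraries, with the mean as a bar and the SD as whiskers. Hoxa2, Hoxa3 and Hoxc4 are spread from near 0 upwards in WT LECs, and Hoxc8 is at 1.97 CPM or more in each WT LEC library. Hoxa2, Hoxa3, Hoxc4 and Hoxc8 lie near 0 in KO LECs, and Hoxd8 lies higher in the KO libraries.

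Long noncoding genes and antisense genes lie between the Hox genes and are read with them. Of 11 in the tables, 5 were tested between WT LECs and WT IntSCs, 1 was higher (Hoxd3os1) and 1 lower (Hotairm1). Hotairm1, a noncoding transcript of the HoxA cluster, was at 193 ± 46.4 CPM in WT IntSCs and 19.8 ± 13.5 CPM in WT LECs (log2 fold change -3.28, SE 0.44, adjusted p = 5.6e-05 by edgeR). Hoxd3os1 was at 1.67 ± 1.64 CPM and 32.8 ± 24.4 CPM (log2 fold change 4.30, SE 1.14, adjusted p = 0.0131 by edgeR). In KO mice Hoxd3os1 was higher and Hotairm1 and Hoxaas2 were lower in LECs, 3 of 4 tested. Hoxaas2, which shares exonic bases with Hoxa3 on the opposite strand, had 1 read in KO LECs and was the 1 noncoding gene of 5 called in the interaction (difference of log2 fold changes 6.69, SE 1.56, adjusted p = 0.0234 by edgeR). No noncoding gene was called between genotypes within a cell type. In all, 16 members share exonic bases with another gene in GENCODE vM21, 10 of them with a gene on the opposite strand.

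Partners of Hox proteins and regulators of Hox genes were counted in the same way. Over all genes tested, 10.3% were higher and 12.3% lower in WT LECs, and 9.11% and 16.8% in KO LECs. TALE cofactors, such as the PBX and MEIS proteins that bind DNA together with Hox proteins, had 1 gene higher (Meis2) and 2 lower (Meis3 and Pknox2) of 10 tested in WT LECs, and none higher and 2 lower (Meis1 and Pknox2) of 10 in KO LECs. Meis1 was at 92.1 ± 11.8 CPM in WT IntSCs and 11.4 ± 21.4 CPM in WT LECs (log2 fold change -3.01, SE 1.06, adjusted p = 0.0565 by edgeR), and Meis2 at 119 ± 28.4 and 208 ± 27.1 CPM (log2 fold change 0.81, SE 0.23, adjusted p = 0.02 by edgeR). Meis3 was at 21 ± 10.6 CPM in WT IntSCs and had no read in WT LECs. Polycomb and Trithorax genes, which keep Hox genes silent or active, had 1 higher (Phc2) and 3 lower (Kdm6b, Ash1l and Kmt2a) of 21 tested in WT LECs and 2 higher and 2 lower of 21 in KO LECs. Kmt2a, the methyltransferase that sustains Hox expression, was at 167 ± 21.9 CPM in WT IntSCs and 75.5 ± 35.6 CPM in WT LECs (log2 fold change -1.14, SE 0.31, adjusted p = 0.015 by edgeR).

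Retinoic acid is a known inducer of anterior Hox genes, and genes of its pathway were called in both directions. In WT LECs 3 of 12 tested genes were higher (Cyp26b1, Dhrs3 and Rarb) and 4 lower, among them Aldh1a1 and Aldh1a3, where 10.3% and 12.3% of all genes were. Cyp26b1, which breaks retinoic acid down, was at 63 ± 13.5 CPM in WT IntSCs and 998 ± 212 CPM in WT LECs (log2 fold change 3.99, SE 0.23, adjusted p = 1.4e-08 by edgeR). Aldh1a3, which makes retinoic acid, was at 236 ± 45.9 and 14.8 ± 7.52 CPM (log2 fold change -3.98, SE 0.38, adjusted p = 1.8e-06 by edgeR). In KO LECs 4 of 11 were higher and 2 lower, where 9.11% and 16.8% of all genes were. Of the other homeobox genes of the gut tube, 3 of 4 tested were higher in WT LECs, Prox1 among them, and 1 was lower, which was Nkx2-3, a factor of the gut mesenchyme, at 739 ± 80.4 CPM in WT IntSCs and 35.5 ± 41.4 CPM in WT LECs (log2 fold change -4.37, SE 0.77, adjusted p = 0.000861 by edgeR). No gene of these lists was called by edgeR between genotypes in IntSCs or LECs.

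Of the cell markers, 9 of 10 LEC markers were higher in both the WT and the KO LECs. The exception was Pdpn (podoplanin), on which LECs were sorted, at 239 ± 84.9 CPM in WT IntSCs and 306 ± 97.5 CPM in WT LECs and lower in KO LECs than in KO IntSCs (log2 fold change -0.88, SE 0.23, adjusted p = 0.0192 by edgeR). In WT LECs 6 of 6 smooth muscle markers and 4 of 5 pericyte markers were lower, 1 pericyte marker was higher (Kcnj8), and of 8 blood endothelial markers 1 was higher (Emcn) and 1 lower (Cd34). In KO LECs 5 of 6 smooth muscle and 3 of 5 pericyte markers were lower with Kcnj8 again higher, and of 7 blood endothelial markers 1 was higher and 4 were lower. Leukocyte markers gave 1 call each way of 3 tested in both (H2-Ab1 higher, Cd68 lower), and no epithelial, Paneth cell, enteric neuron and glia or mesothelial marker was called between the cell types. Between genotypes in IntSCs 3 of 4 tested Paneth cell markers and 1 of 6 epithelial markers were higher in KO, and 1 stromal, 1 pericyte and 1 blood endothelial marker were lower. The last was Cd34, at 1706 ± 563 CPM in WT and 824 ± 74.4 CPM in KO IntSCs. It made most of the summed blood endothelial level of WT IntSCs (2034 ± 569 CPM), and which cells carried it was not tested. The summed Paneth cell level was 0.542 to 9.91 CPM in WT and 67.9 to 175 CPM in KO IntSCs, and 0.5 to 8.65 CPM in WT and 28.6 to 295 CPM in KO LECs. In LECs no marker was called between genotypes, and in the interaction Col3a1, Pdgfra and Sox17 were called, all positive.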

How the data were processed

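The deposited files hold raw counts per gene, 1 table of 23282 rows for each of 18 libraries, which the authors made from QuantSeq 3′ reads. The submitters' processing notes name Bowtie2, edgeR and mm10, while the study's methods name TopHat and Cufflinks. The counting program, the annotation and the use of strand are not given in the sources used here. Counts of 35 symbols on more than 1 row were summed, none of them a Hox gene. CPM values are counts divided by the library total times its TMM factor over all 18 libraries, and SDs are over libraries. Groups came from the sample labels. Comparisons between groups used edgeR 4.0.16 (R 4.3.3) with filterByExpr, TMM factors and the robust quasi-likelihood test on the 2 groups compared, or on all 4 groups for the interaction, with Benjamini-Hochberg adjustment over all genes tested, two-sided, at 0.05. An SE is the absolute log2 fold change divided by the square root of the F statistic of its test, and is not an output of the fit. Where a group has few or no reads, the log2 fold change depends on the prior count, and so does its SE. Scripts were tested on simulated data. DESeq2 1.42.0 and limma-voom (limma 3.58.1) were among the alternatives. Values are given by library for members with a group mean of at least 5 CPM or a call in any fit, of which 22 are shown, and the other 16 by count and range. The remaining member is counted in the totals and is not reported here. Of the genes in the other lists, those described by value were taken from the 4 with the smallest p-values of each list, and Pdpn, Col3a1, Kcnj8, Emcn, Cd34, H2-Ab1, Cd68, Rarb, Pdgfra and Sox17 were named after their values were seen. The members and the lists (TALE cofactors, Polycomb and Trithorax genes, retinoic acid pathway, other homeobox genes, Hox cluster noncoding genes, and cell type markers) were chosen with earlier results of these data known. Intervals and floors cover counting error only. Figures were drawn with matplotlib 3.10.9 (Python 3.11.15, pandas 2.3.3, numpy 2.4.6).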

Additional observations from a re-analysis of the deposited data

Results flagged for a closer look

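Of 65 sets of 4 to 6 libraries examined for 1 library far from the others, 9 held one, where chance gives about 3.25. In WT LEC 1 Hoxc5 was at 5.71 CPM against 0 to 0.247 CPM in the other WT LEC libraries. The same library held the most stromal marker transcripts of the WT LEC libraries, and the part of these in the Hoxc5 value was not tested. In WT LEC 2 Hoxa5 was at 158 CPM against 85.7 to 94.0 CPM, Hoxb9 at 9.13 CPM against 0 to 0.0951 CPM, and Hoxd3 at 67.1 CPM against 49.0 to 50.9 CPM. In WT IntSC 3 Hoxb8 was at 29.0 CPM against 0.505 to 8.52 CPM and Hoxd3 at 44.5 CPM against 0.172 to 11.3 CPM. Among KO IntSC libraries, Hoxa3 was at 82.0 CPM in KO IntSC 1 against 20.7 to 34.9 CPM, Hoxd8 at 60.8 CPM in KO IntSC 2 against 11.3 to 25.0 CPM, and Hoxd4 at 5.98 CPM in KO IntSC 5 against 33.7 to 37.3 CPM.

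For 3 Hox genes the interaction test of edgeR called a genotype difference that differed between the cell types. None of the 3 calls was kept under all alternatives, and Hoxa2 had no read in KO LECs. The values on the log2 scale, as KO minus WT in IntSCs less the same in LECs, were 8.29 for Hoxa2 (adjusted p = 0.0406), 7.05 for Hoxa3 (adjusted p = 0.00674) and 5.01 for Hoxc8 (adjusted p = 0.00333).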

How the results depend on the processing

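No called Hox gene changed direction under any alternative. Among Hox genes not called, the fitted sign changed in at least 1 alternative for 0 of 10 between the WT cell types, 2 of 10 between the KO cell types, 7 of 23 between IntSC genotypes, 5 of 19 between LEC genotypes and 10 of 21 in the interaction. Of the log2 fold changes printed, that of Hoxd4 between IntSC genotypes became -0.0986 by limma-voom and -0.0537 to 0.321 without any 1 library, that of Hoxb3 -0.0131 with the replicate block and -0.0360 to 0.223 without any 1 library, and that of Hoxa5 -0.185 to 0.0618 in IntSCs and -0.341 to 0.0161 in LECs without any 1 library. Of 13 Hox calls between WT LECs and WT IntSCs, 8 were kept under all alternatives, of 14 in KO mice 6, and of 3 in the interaction 0. The 5 Hox genes higher in KO LECs than in KO IntSCs became 1 with the replicate block and 2 to 4 without any 1 library, and the 9 lower became 5 with the block and 7 to 11 without any 1 library. Those higher in WT LECs numbered 5 to 6 and those lower 6 to 10 without any 1 library. Members lower in KO IntSCs went from 0 to 1 by DESeq2, and those lower in KO LECs from 0 to 2 by DESeq2 and to 4 with all 4 groups in 1 fit. The 3 positive interactions became 0 by limma-voom, 0 with the replicate block and 2 to 3 without any 1 library. The cause of these changes was not tested, and fits without a library hold fewer samples.

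Correlations of the deviations of same-numbered libraries were 0.0226 to 0.0436 between WT LECs and WT IntSCs, positive in all 4 pairs, and -0.0623 to 0.08 over all same-numbered pairs. None exceeded 0.1, so the numbers were not taken as pairs. As a hint from the data and not the design, 3 of 4 WT LEC libraries correlated best with the WT IntSC library of their own number and 4 of 4 WT IntSC libraries with the WT LEC library of theirs, against 1 of 3 each way between the KO cell types. With the block Hoxa3 (adjusted p = 0.0548), Hoxa7 (0.0573) and Hoxc9 (0.0516) lost their calls in WT mice, and in KO mice Hoxa2, Hoxa5, Hoxa7, Hoxb7, Hoxc9, Hoxd3 and Hoxd9 were among those that did (0.0535 to 0.203).

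Over all genes, the calls between WT LECs and WT IntSCs went from 2763 to 1596 with the block, and those in KO mice from 3302 to 895. The 183 calls between IntSC genotypes became 376 by DESeq2, 122 with the block, 27 with all 4 groups in 1 fit and 99 to 186 without any 1 library. The 7 calls between LEC genotypes became 309 by DESeq2, 538 with all 4 groups, 12 by limma-voom, 32 with no filter beyond 1 read, 20 with a mean count of at least 10, 3 with the block and 0 to 16 without any 1 library. The 238 interaction calls became 1023 by DESeq2, 143 by limma-voom, 16 with the block and 161 to 461 without any 1 library. Over all genes the median log2 fold change moved between the KO cell types by -0.73 by limma-voom, -0.632 with the block, -0.533 with no filter beyond 1 read and up to -0.205 without 1 KO LEC library. Between the WT cell types the same 3 alternatives moved it by -0.234, -0.144 and -0.204 and upper-quartile factors by -0.112, and between LEC genotypes by -0.198, -0.197 and -0.1. In the interaction it moved by 0.374 with the block, 0.201 by limma-voom, -0.126 by DESeq2, -0.11 with RLE factors and up to 0.114 without 1 KO LEC library. Expressed Hox genes numbered 23, 24, 19 and 15 at 0.5 CPM and 21, 21, 15 and 15 at 5 CPM in WT IntSCs, KO IntSCs, WT LECs and KO LECs. With 1 CPM asked of every library they numbered 17, 17, 14 and 12, and leaving out 1 library gave up to 17 in KO LECs.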
